A study of Mus musculus with 1677 samples.

Results

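Kidney cortex was compared with kidney medulla in mice that fed without restriction. The comparison used 48 libraries, 24 of cortex and 24 of medulla, out of the 1035 libraries and 22 tissues of the series. They were chosen by their column names in the raw count table, which give the region, the feeding group ALF (ad libitum feeding) and the clock time. All mice were wild type C57BL/6J, bought at 10 weeks of age, kept for 2 weeks on chow under 12 h of light and 12 h of darkness, and then given a Western diet (45% fat, 17% sucrose) for 7 weeks. Each region had 2 libraries at each of 12 clock times, every 2 h from ZT0, where ZT counts hours from lights on. A further 48 libraries of the same regions came from mice with the same diet but whose food was offered for 9 h a day, between ZT13 and ZT22 (TRF, for time-restricted feeding). They were used to set the region contrast of ALF mice beside that of TRF mice. All animals ate the Western diet, so none of these values describe chow-fed kidney, and the labels name whole regions with no sorting of cells.

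The kidney cortex holds the glomeruli, which filter the blood, and the convoluted tubules, which take back most of the filtered sodium, glucose, amino acids and phosphate and secrete organic ions. The medulla holds the straight end of the proximal tubule, the loop of Henle and the collecting ducts. There, salt and urea build up outside the tubules, and vasopressin opens the collecting duct to water so that urine is concentrated. Medullary cells work at low oxygen tension and hold organic osmolytes against the surrounding salt.

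Total counts were 2.61 to 10.6 M per cortex library (median 5.14 M) and 2.26 to 30.2 M per medulla library (median 4.49 M). Levels are given as CPM, the counts scaled to a common library total, which are not scaled by gene length, so they compare a gene between samples and not one gene with another. The library labelled medulla, ZT10, replicate 2 stood apart. Its profile correlated more closely with the mean of the cortex libraries (Pearson's r across genes 0.988) than with that of the other medulla libraries (0.945). The other 47 libraries were nearest to their own region, some by little. Medulla of ZT12, replicate 2, had 0.970 with cortex and 0.975 with medulla, and medulla of ZT22, replicate 2, had 0.972 with cortex and 0.977 with medulla. In the ZT10, replicate 2 library the distal convoluted tubule markers summed to 5860 CPM, above all 24 cortex libraries (3510 to 5770 CPM). Its thin limb markers summed to 836 CPM, within the cortex range of 734 to 1260 CPM. Most of that thin limb sum was Aqp1 (764 CPM), which proximal tubule also makes. The ZT10, replicate 2 library held 24.6 CPM of Smoc2, a matrix-associated secreted protein, against at most 12.2 CPM in cortex. Smoc2 was picked because no medulla library overlapped cortex, which held for 4 of 12342 genes, so this value cannot tell the library's region. The library was kept in the analysis. Without it, 4 of the 70 counts of list members higher or lower in cortex given below changed, each by 1, and the counts over all genes without it stand beside the main ones. The labels do not say that replicates were separate animals, so p-values measure the spread between these libraries, which may be technical. Because the tissue is bulk, more cells of a type and more RNA per cell cannot be told apart.

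The regions differed at most genes. Of 12342 genes tested, 8193 (66.4%) passed an adjusted p of 0.05 by edgeR's quasi-likelihood test with Benjamini-Hochberg adjustment, which is the test behind every adjusted p of a mean level below. Of all genes, 33.5% were higher in cortex (4131) and 32.9% were lower in cortex (4062), and the median log2 fold change over all genes (cortex minus medulla) was 0.003. A log2 fold change of at least 1 was rarer: 250 genes (2.03%) were that much higher in cortex and 591 (4.79%) that much lower. Without the medulla library of ZT10, replicate 2, 8398 genes passed, 282 with a log2 fold change of at least 1 and 614 with one of at most -1. Leaving out all replicate 1 libraries, which leaves 12 libraries a region, gave 5424 genes.

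The 10 genes with the largest positive changes included several that define cortical tubule segments. They were Ces1g, a carboxylesterase (2.62 ± 0.27, SE of the log2 fold change, n = 24 libraries in each region here and below), the calcium binding proteins Pvalb (2.17 ± 0.18) and S100g (2.04 ± 0.21), the vitamin D 24-hydroxylase Cyp24a1 (1.93 ± 0.21), Synpr (1.89 ± 0.41), the lactate transporter Slc5a12 (1.87 ± 0.16), the glycine decarboxylase Gldc (1.86 ± 0.15), Sectm1b (1.86 ± 0.18), Clec2h (1.82 ± 0.17) and the chloride and bicarbonate exchanger pendrin, Slc26a4 (1.82 ± 0.17). Ces1g had 9.65, 45.7 and 124 CPM (lowest, median and highest of 24 libraries) in cortex, against 0.901, 6.03 and 47.2 CPM in medulla. The highest medulla value came from the ZT10, replicate 2 library, and without it the medulla maximum was 17.9 CPM, so the groups still overlapped. Pvalb had 33.6, 46.4 and 65.4 CPM in cortex, against 1.13, 9.62 and 61.2 CPM in medulla, and without the same library the medulla stayed at or below 17.4 CPM, under every cortex library. Synpr was uneven within cortex, with a median of 3.22 CPM and a maximum of 102 CPM.

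The 10 largest changes towards medulla were bigger. The urea transporter Slc14a2 led with -3.81 ± 0.32, followed by the peptide hormone cholecystokinin, Cck (-3.62 ± 0.25), the natriuretic peptide processing protease Corin (-3.52 ± 0.27), the matrix protein tenascin N, Tnn (-3.37 ± 0.36), Scel (-3.25 ± 0.24), the betaine transporter Slc6a12 (-3.19 ± 0.28), the homeobox gene Alx1 (-3.15 ± 0.22), the activin antagonist Fst (-3.14 ± 0.23), the vascular ligand Angpt2 (-3.07 ± 0.22) and the other urea transporter gene, Slc14a1 (-3.06 ± 0.26). Slc14a2 had 0, 18.6 and 95.2 CPM in cortex, against 3.06, 306 and 473 CPM in medulla, where the lowest value was that of the ZT10, replicate 2 library and the others began at 99.5 CPM. Cck had 0, 1 and 2.43 CPM in cortex, against 0.85, 13 and 27.6 CPM in medulla. Without that library no medulla value of either gene lay within the cortex range.

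In all, 4 genes kept the 24 cortex and 24 medulla libraries apart with no exception. They were named for this property after their values were seen. Smoc2 had 1.98, 4.72 and 12.2 CPM in cortex, against 17.8, 30 and 41.8 CPM in medulla. The matrix proteoglycan gene Fmod had 2.33, 4.29 and 7.7 CPM in cortex, against 9.01, 15.3 and 30.4 CPM in medulla. Helb, a DNA helicase, was on the other side with 24, 30.8 and 38.2 CPM in cortex, against 14.1, 17.3 and 22.4 CPM in medulla, and Nepn had 10, 12.8 and 18.7 CPM in cortex, against 1.35, 3.81 and 9.86 CPM in medulla. Without the ZT10, replicate 2 library, 311 genes kept the regions apart.

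**Figure D1:**
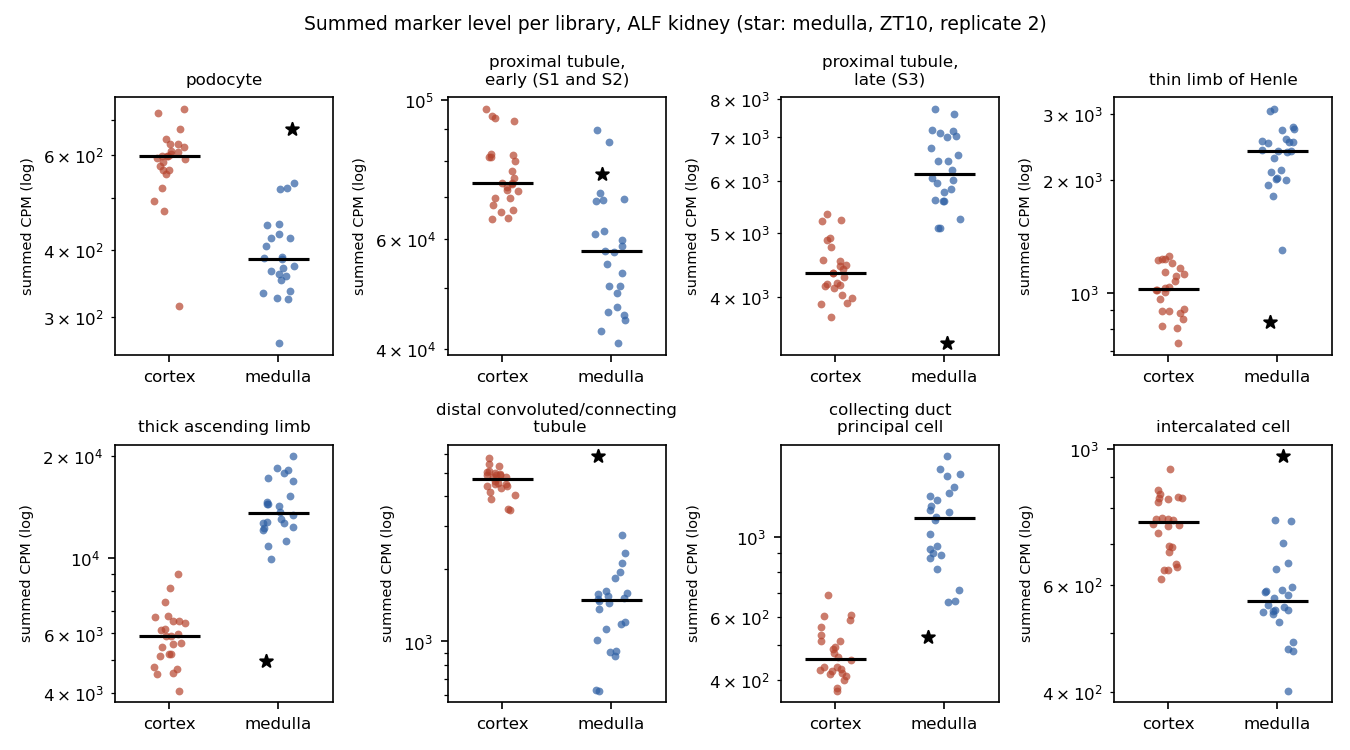
Summed CPM of the marker genes of 8 nephron and collecting duct cell types in each ALF library (points, log axis), cortex on the left and medulla on the right, with medians as bars. The star is the medulla library of ZT10, replicate 2, which lies in or near the range of cortex in the thin limb, thick ascending limb, principal cell and distal convoluted tubule panels.

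Most podocyte markers were higher in cortex. Of 12 podocyte markers, 11 were higher in cortex and 1 lower, with a median log2 fold change of 0.54, where 33.5% of all genes were higher in cortex, 32.9% were lower and the median was 0.003. The lists below stand beside the same values. The podocyte is the cell that forms the filtration slit, and the slit protein nephrin, Nphs1 (0.89 ± 0.12), and the transcription factor Wt1 (0.91 ± 0.10) were among those higher in cortex. The 12 markers summed to 314, 598 and 732 CPM in cortex, against 268, 385 and 673 CPM in medulla. Every medulla library therefore held podocyte RNA, and the ranges overlapped. The exception was the phospholipase Plce1 (-0.36). Renin, Ren1, made by the juxtaglomerular cells at the glomerular pole, had 18, 31.5 and 67.4 CPM in cortex, against 6.31, 14.5 and 65.3 CPM in medulla (log2 fold change 1.06 ± 0.15). The other 6 tested mural markers were lower in cortex, among them the pericyte gene Rgs5 (-0.72 ± 0.08) and smooth muscle actin, Acta2 (-0.49 ± 0.10).

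Vessel, stroma and macrophage markers lay on the medullary side. Of 12 endothelial markers, 11 were lower in cortex and none higher, with a median of -0.49. The junction protein Esam moved most (-1.57 ± 0.10), with 9.31, 19.9 and 29.2 CPM in cortex, against 20.7, 59.7 and 96.5 CPM in medulla. The VEGF receptor Kdr, at 0.14 ± 0.09, did not pass (adjusted p = 0.16). Of 13 fibroblast and matrix markers, 12 were lower in cortex (median -0.60), led by tenascin C, Tnc (-2.61 ± 0.21), and the receptor Pdgfra (-1.35 ± 0.10). Fbln5, at 0.07 ± 0.09, did not pass. Of 13 macrophage and MHC class II markers, 12 were lower in cortex (median -0.28). The macrophage growth factor receptor Csf1r had 46.6, 60.4 and 82.6 CPM in cortex, against 47.9, 147 and 224 CPM in medulla, and lysozyme, Lyz2, had a log2 fold change of -1.28 ± 0.12.

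The early proximal tubule gave the broadest cortical group. Of 18 markers of its S1 and S2 segments, 17 were higher in cortex and none lower, 13 of them by a log2 fold change of at least 1, and the median was 1.38. The sodium and glucose cotransporter SGLT2, Slc5a2, had 216, 389 and 611 CPM in cortex, against 49.1, 90.8 and 410 CPM in medulla (1.81 ± 0.15, adjusted p = 2.7e-13). It was higher in cortex in 23 of the 24 comparisons of libraries with the same clock time and replicate number. The creatine pathway enzyme Gatm had 806, 997 and 1610 CPM in cortex, against 152, 290 and 984 CPM in medulla (1.76 ± 0.14). Without the ZT10 library the ranges of Gatm did not overlap, while those of Slc5a2 still did. Kap, the androgen-regulated kidney protein gene, had 35500, 51100 and 71000 CPM in cortex, against 31900, 46300 and 75700 CPM in medulla, and did not pass (0.15 ± 0.08, adjusted p = 0.079).

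Carriers of phosphate and organic anions were part of the same group. The sodium and phosphate cotransporter Slc34a1 had 3380, 4520 and 7290 CPM in cortex, against 755, 1780 and 5020 CPM in medulla (1.29 ± 0.13). The organic anion transporter Slc22a6 (OAT1) had 922, 1210 and 1770 CPM in cortex, against 176, 443 and 1270 CPM in medulla (1.45 ± 0.14). Slc22a8 (OAT3) had 591, 848 and 1170 CPM in cortex, against 98.2, 234 and 1130 CPM in medulla (1.77 ± 0.15). Without the ZT10 library the regions did not overlap for any of the 3.

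The last, straight segment of the proximal tubule was on the other side. Of 8 markers of S3, none was higher in cortex and 7 were lower, with a median of -0.41. The sterol hydroxylase Cyp7b1 had 47.9, 149 and 271 CPM in cortex, against 66.6, 632 and 969 CPM in medulla (-2.15 ± 0.18), and without the ZT10 library every medulla value was at least 481 CPM. The organic anion transporters Slc22a19 (-1.77 ± 0.15) and Slc22a7 (-1.38 ± 0.20) were also lower in cortex, with the reservation that Slc22a19 belongs to a cluster of near-identical genes whose reads may be split. SGLT1, Slc5a1, the high-affinity glucose carrier of late segments, differed little: 88.9, 112 and 133 CPM in cortex, against 101, 129 and 166 CPM in medulla (-0.21 ± 0.04). Slc5a8, at -0.11 ± 0.05, did not pass (adjusted p = 0.07), and passed without the ZT10 library (adjusted p = 0.031).

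**Figure D2:**
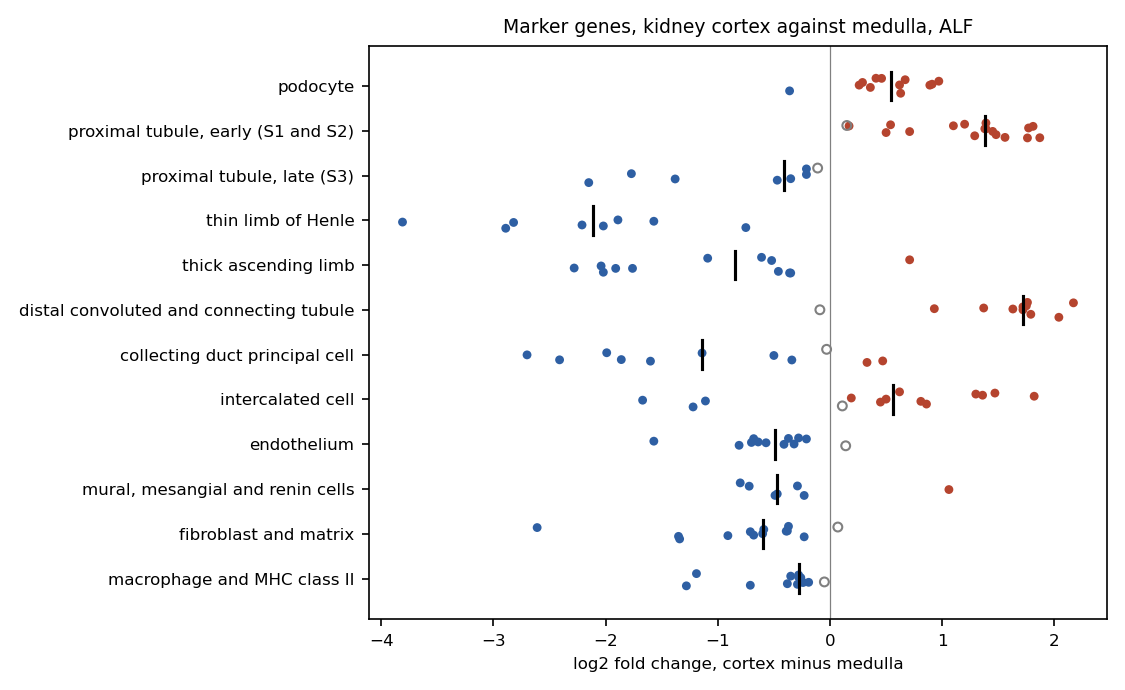
Log2 fold change (cortex minus medulla) of each marker gene by cell type, ALF. Filled points passed an adjusted p of 0.05 (red higher in cortex, blue lower), open points did not, and bars are list medians. Early proximal tubule genes and 10 of 11 distal convoluted tubule genes lie to the right of 0, and thin limb, thick ascending limb and principal cell lie mostly to its left.

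All 8 thin limb markers were lower in cortex, 7 of them by a log2 fold change of at most -1, and the median was -2.11. The ectoenzyme Bst1 had 1.59, 5.95 and 17.8 CPM in cortex, against 3.4, 52.3 and 87.5 CPM in medulla (-2.89 ± 0.20). Slc4a11 changed by -2.82 ± 0.21. Aqp1, the water channel of the descending limb that proximal tubule also makes, had the smallest change of the list: 689, 888 and 1100 CPM in cortex, against 764, 1500 and 1820 CPM in medulla (-0.75 ± 0.06).

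Of 12 thick ascending limb markers, 11 were lower in cortex and 1 was higher, with a median of -0.85. The sodium, potassium and chloride cotransporter NKCC2, Slc12a1, the target of loop diuretics, had 691, 1160 and 2330 CPM in cortex, against 928, 4310 and 8090 CPM in medulla (-1.91 ± 0.13). Without the ZT10 library the lowest medulla value was 2430 CPM, above every cortex library. Uromodulin, Umod, the most abundant protein of urine, changed less (-1.09 ± 0.08), and the prostaglandin receptor Ptger3 changed as much as NKCC2 (-2.02 ± 0.13).

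The distal convoluted and connecting tubule matched the early proximal tubule in direction. Of 11 markers, 10 were higher in cortex, 9 of them by a log2 fold change of at least 1, with a median of 1.72. The thiazide-sensitive sodium and chloride cotransporter NCC, Slc12a3, had 697, 967 and 1450 CPM in cortex, against 87, 290 and 983 CPM in medulla (1.72 ± 0.17). It was higher in cortex in 24 of 24 comparisons of libraries with the same time and number. The magnesium channel Trpm6 (1.75 ± 0.15), the calcium channel Trpv5 (1.76 ± 0.17) and the sodium and calcium exchanger Slc8a1 (1.72 ± 0.17) had similar changes. Wnk4, the kinase upstream of NCC, did not pass (-0.09 ± 0.07, adjusted p = 0.26), with medians of 158 CPM in cortex and 168 CPM in medulla.

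The collecting duct split by cell type. Of 11 principal cell markers, 8 were lower in cortex, 2 were higher and 1 did not pass, with a median of -1.14. The transcription factor Elf5 (-2.70 ± 0.33), the water channels Aqp4 (-2.41 ± 0.19) and Aqp2 (-1.86 ± 0.16), the peptide Apela (-1.99 ± 0.15) and the vasopressin receptor Avpr2 (-1.14 ± 0.10) were lower in cortex. The members higher in cortex were 2 subunits of the epithelial sodium channel, Scnn1b (0.47 ± 0.06) and Scnn1g (0.33). Scnn1b had 36.1, 50.5 and 65 CPM in cortex, against 26.6, 35.5 and 68 CPM in medulla. Hsd11b2, the enzyme that guards the mineralocorticoid receptor from cortisol-like hormones, was level (-0.03 ± 0.08, adjusted p = 0.76).

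Of 14 intercalated cell markers, 10 were higher in cortex, 3 were lower and 1, Foxi1, did not pass (0.11 ± 0.08). Intercalated cells handle acid and base, type A secreting acid and type B secreting base. Pendrin, Slc26a4, of type B cells, had 83.5, 104 and 135 CPM in cortex, against 9.46, 29.7 and 150 CPM in medulla. The 150 CPM came from the ZT10 library, and the others did not exceed 58.6 CPM. The type B exchanger Slc4a9 (1.47 ± 0.13) and the receptors Insrr (1.36 ± 0.12) and Oxgr1 (1.30 ± 0.10) were also higher in cortex. The 3 lower members were Aqp6 (-1.67 ± 0.12), Slc4a1, the anion exchanger of type A cells (-1.22 ± 0.12), and Dmrt2 (-1.11). Slc4a1 had 31, 40.4 and 69.6 CPM in cortex, against 34.3, 101 and 154 CPM in medulla.

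Markers of tissue outside the nephron were checked in the same libraries. Of 11 urothelial markers 7 were tested, and all 7 were lower in cortex (median -1.80), such as the uroplakin Upk3b (-2.60 ± 0.35). The low-count filter kept a gene that was high enough in 1 region alone. Upk3b had medians of 0.818 CPM in cortex and 4.92 CPM in medulla, and Krt15 had 0.327 CPM in cortex and 3.43 CPM in medulla. Such genes could enter through medulla, which favours that direction, so the shared direction is a description. Upk2, Krt5, Krt20 and Foxa1 were too low to test. The 11 urothelial genes summed to 1.55, 10.1 and 45.2 CPM in cortex, against 3.6, 42.9 and 150 CPM in medulla. The part of the pelvic lining in the medullary values of Psca, Krt15 and the like was not tested. None of 7 lymphocyte, 6 adrenal cortex and 6 skeletal muscle markers reached the level needed for testing. The summed adrenal markers were at most 2.9 CPM in cortex and 3.32 CPM in medulla. All 5 erythroid genes were tested and none passed, with log2 fold changes of 0.15 to 0.19, and the globin pairs among them are near-identical copies. Of 8 adipocyte genes 2 were tested, Car3 (1.74 ± 0.16) and Fabp4 (-1.05 ± 0.09), while Adipoq had a median of 0 CPM in both regions. Its highest value in any library was 8.92 CPM, and those of the untested members ran from 1.15 CPM (Plin1) to 15.1 CPM (Lep). A median of 0 therefore does not mean that no library held fat RNA.

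Most water channels and claudins were lower in cortex. Of 11 aquaporins, 7 were tested, of which 6 were lower in cortex and 1 higher (median -1.02). Aqp2, the vasopressin-gated channel, had 19.8, 33.2 and 85.5 CPM in cortex, against 34, 113 and 465 CPM in medulla. Aqp3, on the basal side of the same cell, changed far less, with medians of 82.7 CPM in cortex and 102 CPM in medulla (-0.34 ± 0.06). Aqp7, the glycerol channel of the late proximal tubule, changed by -1.02 ± 0.08. The channel higher in cortex was Aqp11, an intracellular aquaporin of proximal tubule, with 35.4, 43.3 and 57.7 CPM in cortex, against 21.6, 27.8 and 42.5 CPM in medulla (0.67 ± 0.05, adjusted p = 1.2e-13). Aqp5, Aqp8, Aqp9 and Aqp12 were too low to test. Of 19 claudins, 11 were tested: 8 were lower in cortex, 2 did not pass, and Cldn2, which forms the leaky junctions of the proximal tubule, was higher (0.46 ± 0.05). Cldn19, needed for magnesium uptake in the thick limb, was the most medullary (-1.76 ± 0.11).

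Transport genes taken by substrate, rather than by cell, were mixed. Of 24 sodium, potassium and phosphate genes, 12 were higher in cortex, 5 were lower and 7 did not pass (median 0.12). Those that did not pass included the sodium and proton exchanger Slc9a3 (-0.14 ± 0.08). The kinase Wnk1 (0.92 ± 0.08), the phosphate carrier Slc34a3 (1.56 ± 0.13) and the potassium channel Kcnj15 (0.82 ± 0.07) were higher in cortex, and the kinase Stk39 was lower (-0.79 ± 0.06). Of 9 glucose and fructose carriers, 3 were higher, 3 were lower and 3 did not pass. SGLT2 and the exit carrier GLUT2, Slc2a2 (1.48 ± 0.12), were higher in cortex, and GLUT1, Slc2a1, was lower: 20.8, 36.8 and 58 CPM in cortex, against 32.3, 85.9 and 127 CPM in medulla (-1.16 ± 0.10). Of 12 amino acid carriers, 7 were higher in cortex, with Slc6a19 the largest (1.56 ± 0.13), and 5 were lower, with the glutamine carrier Slc38a3 the largest (-1.19 ± 0.11). Of 13 organic ion and drug transporters, 10 were higher in cortex, 2 did not pass and 1, Slco4c1, was lower (-1.94 ± 0.15).

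**Figure D3:**
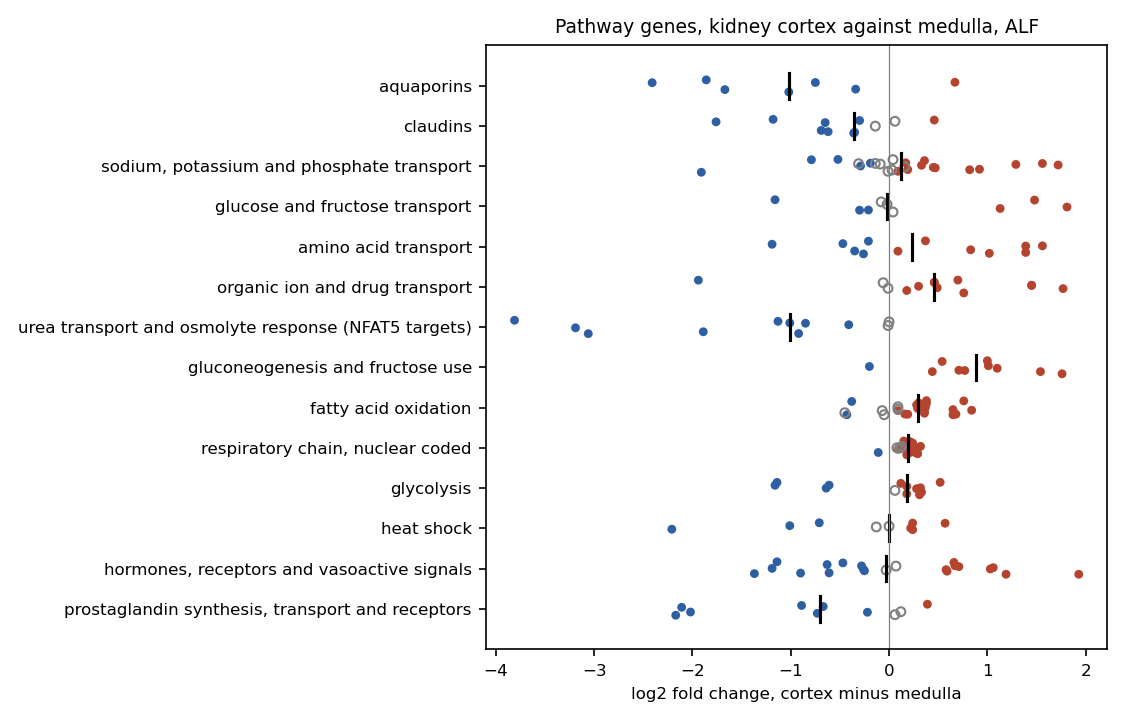
Log2 fold change (cortex minus medulla) of each tested member of 14 pathway lists, ALF. Filled points passed an adjusted p of 0.05 (red higher in cortex, blue lower), open points did not, and bars are list medians. Of the gluconeogenesis genes 9 of 10 lie to the right of 0, urea and osmolyte genes at or to the left of it, and glycolysis on both sides.

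Genes that handle urea and osmolytes were higher in medulla. Of 11 members, 9 were lower in cortex, none was higher and 2 did not pass, with a median of -1.01. The list holds the transcription factor Nfat5, which is activated by high salt, and genes it is known to switch on. Slc6a12, the betaine carrier, had 0, 1.67 and 5.28 CPM in cortex, against 0.34, 16 and 26.2 CPM in medulla (-3.19 ± 0.28). Slc5a3, which takes up inositol, had 109, 209 and 657 CPM in cortex, against 172, 788 and 1600 CPM in medulla (-1.89 ± 0.15). Aldose reductase, Akr1b3, which makes sorbitol, was uneven: 4.76, 12.7 and 35.4 CPM in cortex, against 7.61, 16.1 and 156 CPM in medulla (-0.92 ± 0.28, adjusted p = 0.0037), and it was higher in cortex in 9 of 24 comparisons of libraries with the same time and number. Nfat5 itself had a log2 fold change of -0.85 ± 0.10. Hspa4l (0.00 ± 0.15) and Pnpla6 (-0.01 ± 0.06) did not pass.

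The stretch just before the start of Slc6a12 is shown because it was the only one of the 7 available for this list that held the NFAT5 core searched, TGGAAANNT on either strand (capitals). It is from RefSeq on GRCm38.p6 and runs 5′ to 3′ from 250 bases before the transcription start to 50 after it. The motif was one of 10 searched and was chosen for its match.
Slc6a12, chr6:121342324-121342623, plus strand: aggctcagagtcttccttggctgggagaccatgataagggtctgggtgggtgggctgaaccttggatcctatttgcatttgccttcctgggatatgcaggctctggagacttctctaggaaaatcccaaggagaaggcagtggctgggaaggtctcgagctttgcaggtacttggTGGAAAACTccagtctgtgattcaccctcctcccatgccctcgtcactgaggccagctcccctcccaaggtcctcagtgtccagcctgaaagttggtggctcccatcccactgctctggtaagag
The match lies 75 bases before the start. The same letters occur in 3.77% of the 9582 tested genes with such a window, so a single match among 7 (14.3%) is a description.

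Genes of glucose production were higher in cortex. Of 10 members of gluconeogenesis and fructose use, 9 were higher in cortex and 1 was lower, with a median of 0.89. The rate-limiting enzyme PEPCK, Pck1, had 2220, 3300 and 5350 CPM in cortex, against 987, 1440 and 3460 CPM in medulla (1.10 ± 0.09). Glucose 6-phosphatase, G6pc, had 459, 1000 and 2030 CPM in cortex, against 133, 299 and 988 CPM in medulla (1.54).

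Glycolysis genes went both ways. Of 13 tested, 8 were higher in cortex, 4 were lower and Aldoa did not pass (0.06 ± 0.06), with a median of 0.18. The 4 lower ones were hexokinase, Hk1 (-1.14 ± 0.09), the phosphofructokinase genes Pfkp (-1.16 ± 0.08) and Pfkl (-0.64), and pyruvate kinase, Pkm (-0.61 ± 0.07), enzymes of the regulated steps of the pathway. Another phosphofructokinase gene, Pfkm, was higher in cortex (0.12 ± 0.04). Hk1 had 47.8, 71.9 and 104 CPM in cortex, against 60.8, 170 and 255 CPM in medulla. Gapdh could not be tested: the deposited table lists it at no more than 3.77 CPM in any library, although every cell uses it. How reads of genes with near-identical copies were counted is not given, and whether this bears on the Gapdh value was not tested. Levels of such genes are treated here as uncertain.

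Mitochondrial genes were higher in cortex by small amounts. Of 23 fatty acid oxidation genes, 17 were higher in cortex, 2 were lower and 4 did not pass (median 0.29). The thiolase Acaa2 (0.84 ± 0.07) and the regulator Ppara (0.76 ± 0.06) moved most, and the entry enzyme Cpt1a had 552, 674 and 794 CPM in cortex, against 462, 538 and 677 CPM in medulla (0.36 ± 0.03). The lower ones were Acadm (-0.38) and Cyp4a10 (-0.43), which belongs to a family of close copies. Of 23 nuclear genes of the respiratory chain, 19 were higher in cortex, Ndufb8 was lower (-0.11) and 3 did not pass, with a median of 0.19. Succinate dehydrogenase, Sdha, had the smallest p (0.32 ± 0.03).

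Hormone genes went both ways. Of 21 tested, 9 were higher in cortex, 10 were lower and 2 did not pass. Members higher in cortex were the vitamin D receptor Vdr (0.67 ± 0.05), the vitamin D activating enzyme Cyp27b1 (1.19), its inactivating enzyme Cyp24a1, the FGF23 coreceptor klotho, Kl (1.03 ± 0.09), and the parathyroid hormone receptor Pth1r (0.66). The calcium-sensing receptor Casr was lower in cortex (-0.61 ± 0.05). Cyp24a1 had 13.8, 72 and 249 CPM in cortex, against 2.9, 17.2 and 98.9 CPM in medulla. Angiotensinogen, Agt (-1.37 ± 0.12), endothelin, Edn1 (-0.90), and its receptor Ednrb (-1.19 ± 0.12) were lower in cortex, on the opposite side to renin. Of 10 prostaglandin genes, 7 were lower in cortex, Ptges2 was higher (0.39) and 2 did not pass. The receptor Ptger1 had 0.983, 2.37 and 7.34 CPM in cortex, against 1.87, 10.5 and 27.2 CPM in medulla (-2.17 ± 0.19), and prostaglandin D synthase, Ptgds, changed by -2.11 ± 0.17.

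Hypoxia genes did not share a direction: of 14 tested, 4 were higher in cortex, 4 were lower and 6 did not pass (median -0.06). Ndrg1 (1.08 ± 0.10), Adm (1.11 ± 0.12) and Vegfa (0.30 ± 0.04) were higher in cortex, while Hif1a (-0.51) and Pfkfb3 (-0.77) were lower. Epas1, which codes for HIF2A, did not pass (-0.07). Of 9 heat shock genes, 4 were higher in cortex, 3 were lower and 2 did not pass. The small chaperone Cryab had 32, 63.5 and 177 CPM in cortex, against 33, 265 and 778 CPM in medulla (-2.21 ± 0.20). Hspa1a (-0.71) and Hspa1b (-1.01), near-identical genes whose reads may be split, were lower in cortex, and the constitutive Hspa8 was higher (0.57).

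Of 27 transcription factors of the nephron and collecting duct, 7 were higher in cortex, 15 were lower and 5 did not pass, with a median of -0.27. Maf, of the proximal tubule, was the largest on the cortical side: 147, 243 and 360 CPM in cortex, against 62.5, 84.3 and 282 CPM in medulla (1.25 ± 0.12). Hnf4a, which drives proximal tubule genes, was higher by 0.50. On the medullary side, Irx1 had 1.87, 5.52 and 18.9 CPM in cortex, against 2.55, 23.7 and 50.1 CPM in medulla (-1.95 ± 0.17), with Irx2 (-1.74 ± 0.13), the estrogen-related receptor Esrrb (-1.27) and Grhl2 (-1.28) beside it. Those that did not pass included Esrrg, Hoxd10, Foxi1 and Tfap2a.

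**Figure D4:**
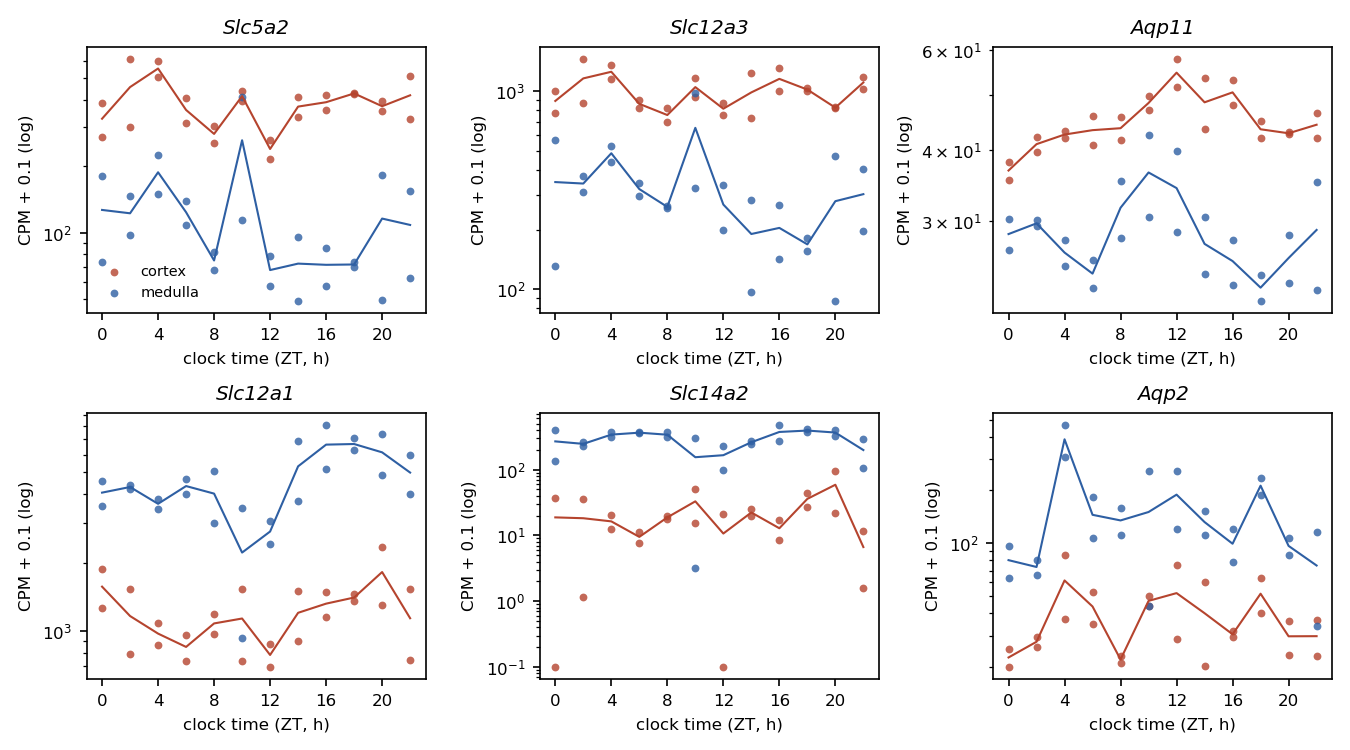
CPM plus 0.1 (log axis) of 6 transport genes in every ALF library against clock time, cortex in red and medulla in blue, with lines through the means of 2 libraries. Slc5a2, Slc12a3 and Aqp11 lie higher in cortex and Slc12a1, Slc14a2 and Aqp2 higher in medulla, and 1 medulla library at ZT10 lies among the cortex points.

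No gene was called for a different rhythm in the regions. A cosine and sine of 24 h fitted in each region called 3538 genes rhythmic in cortex (28.7%) and 4914 in medulla (39.8%) by edgeR's test, 2562 in both. For the genes called in both, the fitted peaks differed by a median of 0.738 h between regions, and 2278 (88.9%) peaked within 2 h of each other. Without the medulla library of ZT10, replicate 2, the counts were 3845 in cortex and 4642 in medulla. The counts and their order depended on the libraries and the scaling. Cortex had the higher count with offsets for GC content (4118 in cortex, 3702 in medulla) and without ZT16 (3095 in cortex, 2710 in medulla). Without replicate 1 the counts were 319 in cortex and 417 in medulla, without replicate 2 they were 1004 in cortex and 1687 in medulla, and without ZT6 the cortex count was 2038. The test of the difference called 0 of 12342 genes (0%) by edgeR, and 0 or 1 under the other settings tried. Its unadjusted p was under 0.05 for 332 genes, which is less than a share of 0.05 of the genes tested. The count of 0 does not show that the rhythms were equal.

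All 19 core clock genes were rhythmic in both regions. Dbp, a clock output factor, had an amplitude (the log2 height from mean to peak, with SE) of 2.76 ± 0.11 in cortex and 2.75 ± 0.11 in medulla, and peaked at ZT10.1 in both. Bmal1, Arntl, the positive arm of the loop, had amplitudes of 2.64 ± 0.13 in cortex and 2.13 ± 0.13 in medulla and peaked at ZT22.8 in cortex and ZT22.9 in medulla (unadjusted p for the rhythm difference 0.0673). Nr1d1, its repressor, peaked at ZT7.2 in cortex and ZT7.3 in medulla. Per2, of the negative arm, peaked at ZT15.4 ± 0.4 h in cortex and ZT14.6 ± 0.4 h in medulla. Cry2 peaked at ZT13.5 ± 0.4 h in cortex and ZT12.3 ± 0.4 h in medulla. The fitted amplitude was the larger in cortex for 15 of the 19, beside 1296 of the 2562 genes rhythmic in both regions. The difference of rhythm had an adjusted p of 1 for each of the 19. Mean levels of the 19 differed little between regions, with 8 higher in cortex, 4 lower and 7 that did not pass, within log2 fold changes of -0.29 to 0.45.

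**Figure D5:**
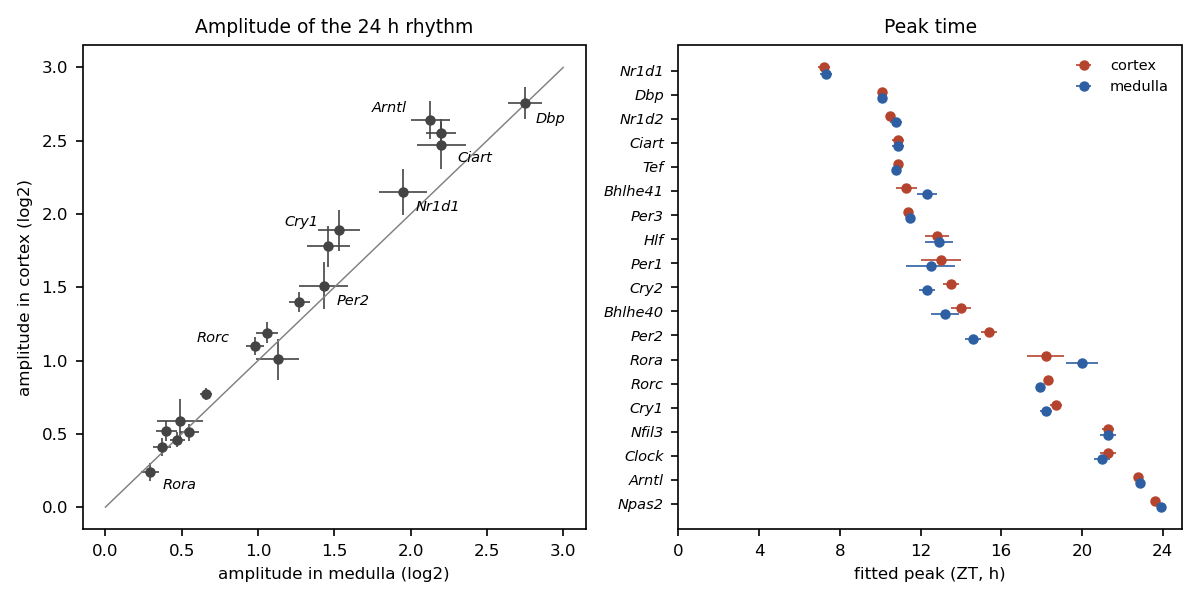
Core clock genes in ALF kidney. Left, log2 amplitude in cortex against amplitude in medulla with SEs, and a line of equality. Right, fitted peak time with SEs in cortex (red) and medulla (blue), where 17 of 19 pairs lie within 1 h of each other.

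The genes with the smallest p for a rhythm difference did not pass, and are given as values. Sh3yl1 was the nearest (adjusted p = 0.21), with an amplitude of 0.27 ± 0.03 in cortex and 0.10 ± 0.03 in medulla. Sumo3 (adjusted p = 0.46), Ypel2 (0.74), Mcu, Dock9, Rcan2 and Vil1 followed. Ypel2 had amplitudes of 1.30 ± 0.07 in cortex and 0.87 ± 0.07 in medulla, and Vil1, a brush border protein, 0.02 ± 0.04 in cortex and 0.22 ± 0.04 in medulla.

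Some hypoxia, hormone and heat shock genes outside the clock were rhythmic in both regions, and are named after their values were seen. Ndrg1 had an amplitude of 1.07 ± 0.10 in cortex and 1.08 ± 0.10 in medulla, with peaks at ZT22.9 in cortex and ZT23.7 in medulla. The vasopressin receptor Avpr1a peaked at ZT23.3 in cortex and ZT23.7 in medulla, and Hsp90aa1 at ZT19.4 in cortex and ZT19.6 in medulla. Of 32 lists with tested members, 7 had more rhythmic members in cortex, 22 had more in medulla and 3 had equal numbers, beside 28.7% of all genes in cortex and 39.8% in medulla. Among amino acid carriers 0 of 12 were rhythmic in cortex and 9 in medulla, and among thick ascending limb markers 3 of 12 in cortex and 7 in medulla. Endothelial markers had 5 of 12 in cortex and 3 in medulla, and heat shock genes 5 of 9 in cortex and 3 in medulla. Urothelial markers had 3 of 7 in cortex and 0 in medulla. These 3, Upk1a, Upk1b and Upk3a, averaged only 3.35, 3.97 and 2.31 CPM over both regions. A few cortex libraries stood out in the urothelial sum, beside a cortex median of 10.1 CPM. They had 42.1 and 43.9 CPM at ZT4, 38.5 CPM at ZT6 (replicate 2) and, the highest, 45.2 CPM at ZT12 (replicate 1). Of the early proximal tubule markers 0 of 18 in cortex and 5 in medulla were rhythmic. No list held a gene called for a rhythm difference. Some segment markers were rhythmic among the medulla libraries, and their part in the medullary count was not tested. With the log2 ratio of the early proximal tubule sum to the thin limb sum as a term, added after seeing the data, 5237 genes were rhythmic in cortex and 6273 in medulla, and 0 differed. Kap gave most of the first sum, with a cortex median of 51100 CPM beside 73700 CPM. Aqp1 gave most of the second, with 888 CPM beside 1030 CPM. The ratio therefore largely follows Kap and Aqp1, and Kap did not pass between regions.

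The region contrast of ALF mice was set beside that of TRF mice, which came from other libraries. In TRF, 8726 of 12286 genes (71.0%) passed, 4386 higher in cortex and 4340 lower. Of 12212 genes tested in both, 8118 passed in ALF. Of these, 7507 passed in TRF in the same direction, which is 92.5% of the ALF genes and 86.5% of the 8674 that passed in TRF, and 2 passed in the opposite one. SGLT2 had a log2 fold change of 1.81 in ALF and 2.09 in TRF, NKCC2 -1.91 in ALF and -1.98 in TRF, and Slc14a2 -3.81 in ALF and -3.54 in TRF. A test of the difference itself called 0 of 12358 genes (0%), with 657 at an unadjusted p under 0.05. With clock time and replicate number as a block it called 110 genes, 103 of them with the higher value in ALF. In TRF, 3 medulla libraries were nearer to cortex. Without these and the ALF library of ZT10, replicate 2, the difference passed for 75 genes, 72 of them with the higher value in ALF.

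The members of the lists among these 75 were 7 genes of macrophages, stroma and endothelium, named here after their values were seen, and for each the log2 fold change was lower in TRF. The integrin Itgam had a log2 fold change of -0.26 ± 0.11 in ALF and -1.18 ± 0.18 in TRF with all libraries (adjusted p of the difference 0.077), and 0.009 without those libraries. The leukocyte phosphatase Ptprc had -0.24 ± 0.08 in ALF and -0.69 ± 0.07 in TRF (0.077 with all libraries, 0.018 without those 4). Decorin, Dcn, had -0.91 ± 0.09 in ALF and -1.53 ± 0.13 in TRF, and Kdr had 0.14 ± 0.09 in ALF and -0.41 ± 0.09 in TRF. Adgre1, H2-Aa and Lyz2 were the others. The block, which called 110 genes, shared 60 with these 75 and gave another set of list members. It called Itgam, Ptprc, Dcn, Kdr, Adgre1 and H2-Aa but not Lyz2. It also called the matrix gene Fbln5, the fatty acid oxidation gene Acadm and Epas1 of the hypoxia list. The ALF minus TRF difference was 0.25 ± 0.06 for Acadm and 0.21 ± 0.04 for Epas1, so the members called were not of those cell types only.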

How the data were processed

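RNA was sequenced from poly(A) libraries (TruSeq Stranded mRNA) on Illumina HiSeq or NovaSeq instruments, per the labels' protocols. The authors deposited 1 table of expected counts per gene, of which 34.27% of kidney values were not whole, so they were rounded here. The submitters' processing notes name CASAVA 1.8, FastQC 0.11.8, STAR 2.5.3a and HOMER 4.10 with mm10/GRCm38, with no role given. Of 24537 rows, 4 with duplicated date-like names were left out, and 939 per-sample columns were not used. Genes are named by the symbols in the table.

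Genes were filtered with filterByExpr, scaled by TMM and tested by edgeR's quasi-likelihood test (edgeR 4.0.16, limma 3.58.1, R 4.3.3) with clock time as a factor and Benjamini-Hochberg adjustment at 0.05. Rhythms were fitted as a 24 h cosine and sine in each region. Alternatives were DESeq2 1.42.0 and its size factors, no filter, GC offsets (GC known for 97.8% of genes), the number of runs, a 12 h harmonic, and leaving out libraries, replicates or clock times. The procedure was tested on simulated data.

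The text names the 10 largest changes each way that agreed in sign between replicates, among genes averaging 5 CPM or more, up to 6 members per list by smallest p, members that did not pass, all aquaporins and core clock genes, and the 8 smallest p of a rhythm difference; other named members were chosen after their values were seen. The members and lists were chosen with earlier results of these data known. Some genes that this rule names are not reported here.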

Additional observations from a re-analysis of the deposited data

How the results depend on the processing

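The test called 8193 genes, against a count of 8024 with DESeq2, 8241 with its size factors in edgeR, 8751 with GC offsets and 7081 at an adjusted p of 0.01. Without the filter on low counts, 493 genes were at least 1 log2 unit higher in cortex, 1269 were that much lower, and 1 gene, Itln1, was called for a rhythm difference. Without ZT0 it was 1 other gene. Rhythmic genes numbered 2038 in cortex without ZT6 and 2710 in medulla without ZT16, where cortex had 3095. With 1 replicate left out, 5424 to 7582 genes were called, with 319 to 1004 rhythmic in cortex and 417 to 1687 in medulla. These fits hold 12 libraries a region. Of 244 named genes, none that passed changed sign in a fit that kept it, but 6 fell under the low-count filter in some fits: Ciart, Krt15, Upk3b, Bhlhe41, Synpr and Trp63. Ciart, at 0.26 in all libraries, had a difference of -0.11 among replicate 2 libraries. Of the genes called, those higher in cortex were 4131 of 8193, and without replicate 1 they were 2638 of 5424.

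Both regions carry the same replicate numbers. At each clock time the correlation of their deviations ran from -0.24 to 0.502 in ALF (median 0.391), over 0.1 at 10 of 12 times and under -0.1 at ZT10. All 48 pairs also share a code in their library names, which the labels do not define, so the number was treated as a number only. With a replicate block, 8377 genes were called in ALF, 260 of them at least 1 log2 unit higher in cortex and 586 that much lower, and 0 for a rhythm difference. Rhythm within a region could not be fitted with the block. The difference between ALF and TRF was called for 0 genes, but for 110 with the block and for 75 without the 4 libraries nearer to the other region. The cause was not tested. Depth limits calls in genes of low count.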
